A study of Apis mellifera with 6 samples.

Results

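Troponin is the calcium switch of the thin filament in striated muscle, which in insects includes the muscle fibres around the gut. Troponin C binds calcium, troponin I holds back the interaction of actin with myosin, and troponin T anchors the complex to tropomyosin. Insects carry several troponin C genes, and in Drosophila these are used in different muscles and at different stages. The muscle sheath of the midgut moves the food, while the epithelium inside it digests and absorbs.

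The genes described here are the rows of the deposited tables whose identifier begins with Tpn. There are 7 of them among 10013 genes: TpnI (troponin I), TpnT (troponin T) and the troponin C genes TpnCI, TpnCIIa, TpnCIIb, TpnCIIIa and TpnCIIIb. All 7 had reads in every sample, and a filter on low values (a mean of at least 1 normalized read) removed none. They were chosen by name, not by their values. All 7 matched a protein-coding gene by symbol in the RefSeq gene table of the assembly Amel_HAv3.1. The build behind the deposited tables is not given in the sources used here.

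RNA came from midguts of honey bees (Apis mellifera). In the tunicamycin group (replicates 2, 3 and 4) bees took sucrose solution with 24 µM tunicamycin in 0.5% DMSO (the solvent) for 24 hours. In the control group (replicates 1, 2 and 3) they took 0.5% DMSO alone for the same time. Tunicamycin blocks the first step of N-glycosylation, so that misfolded proteins build up in the endoplasmic reticulum. The labels give neither the age of the bees nor whether midguts were pooled, and do not say that replicates came from separate cages or colonies. The p-values therefore set a group difference against the scatter of these samples, and that scatter may be technical.

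The values are read counts divided by a size factor per sample, called normalized reads below. Recovered reads came to 22763496, 25025084 and 24120622 in tunicamycin replicates 2, 3 and 4, against 23305215, 26278751 and 24808957 in control replicates 1, 2 and 3. The endoplasmic reticulum chaperone gene Hsc70-3, a target of the unfolded protein response, had 211942, 267564 and 317129 normalized reads in tunicamycin samples and 68417, 35140 and 25372 in controls. A principal component analysis of all genes set control replicate 1 apart, at 48.7 on the second component against -21.3 and -14.3 for the other controls. The epithelial alpha-glucosidase gene AGLU2 had between 378312 and 607002 normalized reads in tunicamycin samples and between 589398 and 709964 in controls, so the labelled tissue had reads of an epithelial gene in every sample. Since these are bulk samples, fewer muscle cells and less RNA per muscle cell cannot be told apart. The labels name the midgut and no muscle, so muscle of other origin left on a dissected gut cannot be told apart from the gut's own.

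No troponin gene passed the test between tunicamycin and control. Of the 7 genes, 0 passed an adjusted p of 0.05 in limma, which called 1.13% of all genes, and 0 had an unadjusted p under 0.05, against 15.5% of all genes. The edgeR and DESeq2 fits on recovered reads also called 0 of the 7, against 0.939% of all 10013 genes in edgeR and 5.27% of the 9790 genes with an adjusted p in DESeq2, again with 0 at an unadjusted p under 0.05. Fitted log2 fold changes lay between -0.77 (TpnCIIIb) and 0.37 (TpnT), with 3 above and 4 below 0. Their median was -0.056, beside 0.0014 over all genes, and it turned to 0.19, 0.21 and 0.17 without tunicamycin replicate 2, control replicate 2 and control replicate 3. The limma adjusted p-values of the 7 lay between 0.330 and 0.956.

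TpnI, the inhibitory subunit, had 1190, 2126 and 1720 normalized reads in tunicamycin replicates 2, 3 and 4, against 910, 2001 and 1513 in control replicates 1, 2 and 3. The groups overlapped, and control replicate 1 and tunicamycin replicate 2 were the lowest samples of the study. Means were 1679 ± 469 in tunicamycin and 1475 ± 546 in controls (SD, n = 3 each). The fold change was 1.16 with a 95% interval of 0.693 to 1.96 (log2 0.22, SE 0.32; limma adjusted p = 0.780). Without control replicate 1 the sign of the log2 fold change turned, to -0.092 (limma adjusted p = 0.885).

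TpnT, the tropomyosin-binding subunit, had 1420, 2388 and 1693 normalized reads in tunicamycin samples and 925, 1658 and 1736 in controls. Tunicamycin replicate 3 was the highest sample and control replicate 1 the lowest, and the rest lay between 1420 and 1736 in both groups. Means were 1834 ± 499 in tunicamycin and 1440 ± 447 in controls (SD, n = 3 each). The fold change was 1.29 with a 95% interval of 0.812 to 2.06 (log2 0.37, SE 0.29; limma adjusted p = 0.579). Without control replicate 1 the log2 fold change was 0.078 (limma adjusted p = 0.884). In the RefSeq table TpnT overlaps LOC113218844, which is not among the 10013 genes of the deposited tables. Its level is therefore unknown here, and reads could be shared between TpnT and LOC113218844.

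**Figure D1:**
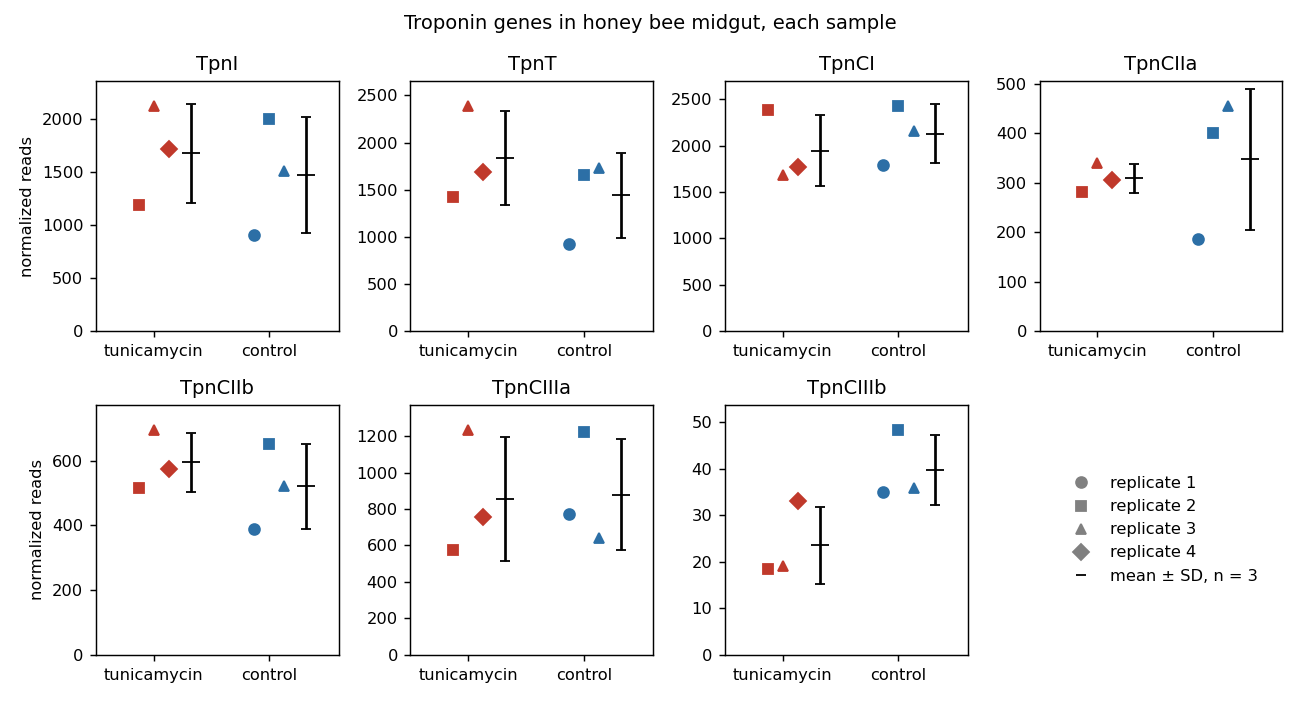
Normalized reads (vertical axes, each starting at 0) of the 7 troponin genes in each sample of the tunicamycin (left, red) and control (right, blue) groups, with the symbol giving the replicate number and the bar giving mean ± SD (n = 3). The groups overlap for all genes but TpnCIIIb, where tunicamycin samples lie between 18.5 and 33.0 and controls between 35.0 and 48.4.

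Among the calcium-binding subunits, TpnCI had 2384, 1685 and 1769 normalized reads in tunicamycin samples, against 1797, 2428 and 2164 in controls. Its highest tunicamycin sample, replicate 2, was the lowest one for TpnI and TpnT. Means were 1946 ± 382 in tunicamycin and 2130 ± 317 in controls (SD, n = 3 each; log2 -0.14, SE 0.17; limma adjusted p = 0.748). TpnCI had the narrowest 95% interval of the 7, from 0.685-fold to 1.21-fold, so that a fall or rise by more than these bounds lies outside it.

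Of the type II genes, TpnCIIa had 281, 339 and 306 normalized reads in tunicamycin samples and 186, 400 and 455 in controls. All 3 tunicamycin samples lay between the lowest and the next control, with a coefficient of variation of 9.45% in tunicamycin and 40.9% in controls. That of TpnCIIb was 15.3% in tunicamycin and 25.2% in controls. The difference in spread was not tested. The fold change of TpnCIIa was 0.952 with a 95% interval of 0.562 to 1.61 (log2 -0.072, SE 0.32; limma adjusted p = 0.940).

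TpnCIIb had 517, 696 and 574 normalized reads in tunicamycin samples, against 389, 651 and 522 in controls. The samples of both groups interleaved, with control replicate 1 at the bottom. Its fold change was 1.16 with a 95% interval of 0.824 to 1.63 (log2 0.21, SE 0.21; limma adjusted p = 0.663). In the RefSeq table TpnCIIb overlaps LOC552209, which had 113, 37.0 and 77.3 normalized reads in tunicamycin samples and 31.0, 85.6 and 67.0 in controls. Reads from the overlap cannot be assigned, since the strand setting of the counting is not given in the sources used here.

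The type III genes TpnCIIIa and TpnCIIIb are immediate neighbours in the RefSeq table. TpnCIIIa had 577, 1235 and 758 normalized reads in tunicamycin samples and 772, 1223 and 642 in controls. In each group 1 sample, tunicamycin replicate 3 and control replicate 2, was well above the others. The spread within a group exceeded the difference between the means of 856 ± 340 in tunicamycin and 879 ± 305 in controls (SD, n = 3 each). The fold change was 0.962 with a 95% interval of 0.565 to 1.64 (log2 -0.056, SE 0.33; limma adjusted p = 0.956).

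TpnCIIIb had 18.5, 19.0 and 33.0 normalized reads in tunicamycin samples, against 35.0, 48.4 and 35.9 in controls. It was the single troponin gene whose groups did not overlap, with every tunicamycin sample below every control, a pattern found in 10.7% of all genes (21.8% in either direction). Tunicamycin replicate 4 came close to controls 1 and 3. Means were 23.5 ± 8.22 in tunicamycin and 39.8 ± 7.48 in controls (SD, n = 3 each). The fold change was 0.587 with a 95% interval of 0.341 to 1.01, and it did not pass (log2 -0.77, SE 0.33; limma unadjusted p = 0.0535, adjusted p = 0.330; edgeR adjusted p = 0.355; DESeq2 adjusted p = 0.404).

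The values of TpnCIIIb rest on 17, 18 and 35 reads in tunicamycin samples and 35, 52 and 37 reads in controls. The exact 95% Poisson intervals, which cover counting error only, ran from 9.90 to 27.2 reads around the 17 reads of tunicamycin replicate 2. They ran from 26.1 to 51.0 reads around the 37 reads of control replicate 3. The counting SD alone was between 16.9% and 24.3% of the value in tunicamycin samples and between 13.9% and 16.9% in controls, beside a coefficient of variation of 34.9% in tunicamycin and 18.8% in controls. Its neighbour TpnCIIIa did not share the pattern: the ratio of TpnCIIIb to TpnCIIIa was 0.0321, 0.0154 and 0.0435 in tunicamycin samples and 0.0453, 0.0396 and 0.0560 in controls. These ratios overlapped between groups (exact two-sided permutation p = 0.2, adjusted p = 0.6 over 6 ratios), in a design that cannot go below 0.1.

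**Figure D2:**
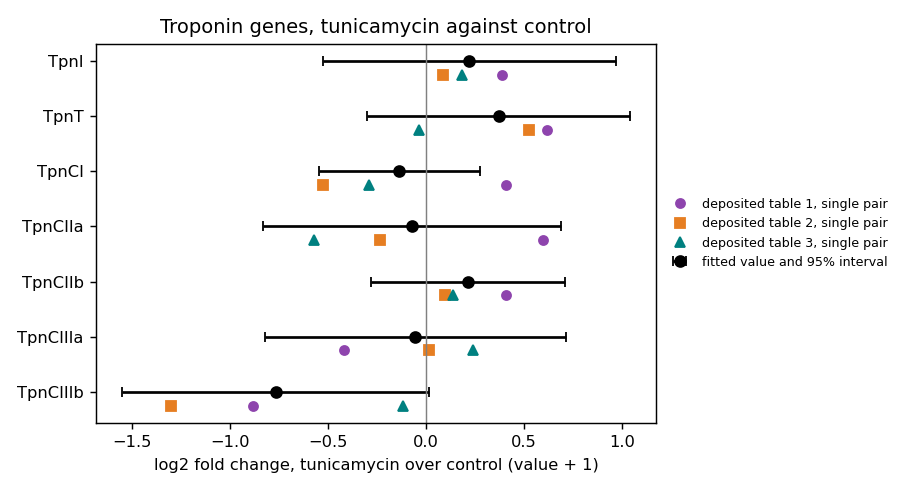
Log2 fold change of each troponin gene, tunicamycin over control, on the log2(value + 1) scale (horizontal axis). Black points with bars are the limma value and its 95% interval over 6 samples, and coloured symbols are the difference within each of the 3 deposited tables. All 7 intervals include 0, and that of TpnCIIIb reaches from -1.55 to 0.015.

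Each deposited table holds 1 tunicamycin and 1 control sample, and the tables differed in direction. In the table with tunicamycin replicate 2 and control replicate 1, 5 of the 7 genes were higher in the tunicamycin sample, with a median log2 difference of 0.41. In the table with tunicamycin replicate 3 and control replicate 2, 4 were higher and the median was 0.014. In the table with tunicamycin replicate 4 and control replicate 3, 3 were higher and the median was -0.036. TpnI, TpnCIIb and TpnCIIIb kept 1 direction in the 3 tables, up, up and down in that order. TpnCI was 1.33 times as high in the tunicamycin sample of the first of these tables, but 0.694 and 0.817 times as high in the other tables.

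The troponin genes also varied between samples of the same group. Control replicate 1 was the lowest control for 6 of the 7 genes, TpnCIIIa being the exception. Tunicamycin replicate 2 was the lowest tunicamycin sample for 6 of the 7, TpnCI being the exception. All 7 genes were lower in control replicate 1 than in the mean of controls 2 and 3, at 0.435 (TpnCIIa) to 0.830 (TpnCIIIb) times that mean. Of all genes, 49.3% were lower there. The median log2 difference was -0.59 over the 7 and 0.0061 over all genes. TpnI stood at 910 in control replicate 1 against a mean of 1757 in the other controls, and TpnT at 925 against 1697.

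Without control replicate 1 limma still called 0 of the 7 genes, while it called 202 of all genes, against 113 with all samples. The residual SD within groups was 0.51 for TpnI, 0.45 for TpnT, 0.50 for TpnCIIa and 0.52 for TpnCIIIa on the log2 scale, against a median of 0.24 over all genes. TpnCI, at 0.25, was close to that median.

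**Figure D3:**
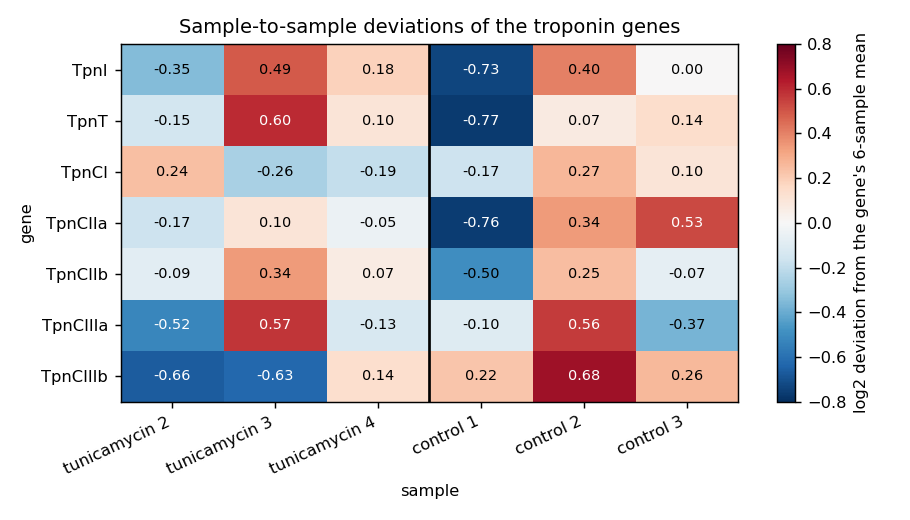
Log2 deviation of each troponin gene (rows) from its own mean over the 6 samples (columns, tunicamycin left of the line and control right of it). Control replicate 1 is the darkest column for TpnI, TpnT, TpnCIIa and TpnCIIb, at -0.73, -0.77, -0.76 and -0.50, while TpnCI and TpnCIIIb follow other patterns.

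Over the 6 samples some of the troponin genes varied together. TpnI and TpnCIIb had the highest correlation of the 21 pairs (Pearson r = 0.97, exact permutation p = 0.00278; Spearman rho = 1, exact permutation p = 0.00278). Their adjusted p was 0.0583 for both measures, which does not pass. With 6 samples the exact permutation p cannot go below this 0.00278. Over 21 pairs a lone pair at that floor therefore could not have passed. TpnI and TpnCIIb ranked the 6 samples in the same order, and r was 0.998 without control replicate 1 and tunicamycin replicate 2, the samples farthest from the median of TpnI. Over deviations from the group means r was 0.98.

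TpnI and TpnT also varied together (Pearson r = 0.91, exact permutation p = 0.0167, adjusted p = 0.175; Spearman rho = 0.77, exact permutation p = 0.103, adjusted p = 0.613). Without the same pair of samples r was 0.58. Leaving out the samples farthest out narrows the range of a gene, which can lower r by itself. Such values, here and below, therefore do not show what a relation rests on. TpnT and TpnCIIb had r = 0.92 (exact permutation p = 0.0306, adjusted p = 0.214; Spearman rho = 0.77, exact permutation p = 0.103, adjusted p = 0.613), and 0.35 without control replicate 1 and tunicamycin replicate 3. TpnCI did not follow TpnI (r = -0.029, exact permutation p = 0.939; Spearman rho = -0.26, exact permutation p = 0.658), and r was -0.20 without the 2 samples farthest out. The neighbours TpnCIIIa and TpnCIIIb had r = 0.19 (exact permutation p = 0.703; Spearman rho = 0.26, exact permutation p = 0.658), and 0.75 without control replicate 2 and tunicamycin replicate 3. All 6 samples enter each of these relations, so the 21 pairs are not independent of each other.

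The ratio of TpnT to TpnI, the subunits present once each in a troponin complex, was 1.19, 1.12 and 0.985 in tunicamycin samples and 1.02, 0.829 and 1.15 in controls. It varied less within a group than either gene alone, whose highest sample was 1.79 (TpnI) and 1.68 (TpnT) times the lowest within tunicamycin and 2.20 and 1.88 times within controls. The means of the ratio, 1.10 ± 0.106 in tunicamycin and 0.997 ± 0.160 in controls (SD, n = 3 each), differed by less than the SD of the controls (exact two-sided permutation p = 0.5, adjusted p = 0.6).

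Troponin C reads as a whole added up to 3777, 3973 and 3440 normalized reads in tunicamycin samples and 3179, 4751 and 3818 in controls. The sum relative to TpnI and TpnT together was 1.45, 0.880 and 1.01 in tunicamycin samples and 1.73, 1.30 and 1.17 in controls. This ratio was highest in each group in the sample that was lowest for TpnI and TpnT (exact two-sided permutation p = 0.3, adjusted p = 0.6 between groups). Since TpnI and TpnT are its divisor, low values of them raise the ratio by construction.

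Within troponin C the make-up varied by sample. Transcript lengths were not used here, so shares of reads are compared between samples and not between genes. TpnCI held 63.1%, 42.4% and 51.4% of troponin C reads in tunicamycin samples and 56.5%, 51.1% and 56.7% in controls. The tunicamycin samples thus spread on both sides of the controls, with an SD of 10.4 against 3.17 percentage points. TpnCIIIa held 15.3%, 31.1% and 22.0% in tunicamycin samples, against 24.3%, 25.7% and 16.8% in controls. Tunicamycin replicate 3 had the lowest share of TpnCI and the highest of TpnCIIIa.

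TpnCIIb held 13.7%, 17.5% and 16.7% of troponin C reads in tunicamycin samples and 12.2%, 13.7% and 13.7% in controls. The means were 16.0% ± 2.02 and 13.2% ± 0.837 (SD, n = 3 each). TpnCIIa held between 7.45% and 8.88% in tunicamycin samples and between 5.85% and 11.9% in controls. TpnCIIIb held 0.491%, 0.479% and 0.959% in tunicamycin samples and 1.10%, 1.02% and 0.941% in controls. The shares of all 5 genes overlapped between groups. Their exact two-sided permutation p lay between 0.2 and 1 (adjusted p from 0.5 to 1), in a design that cannot go below 0.1 and so could not have called a difference.

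**Figure D4:**
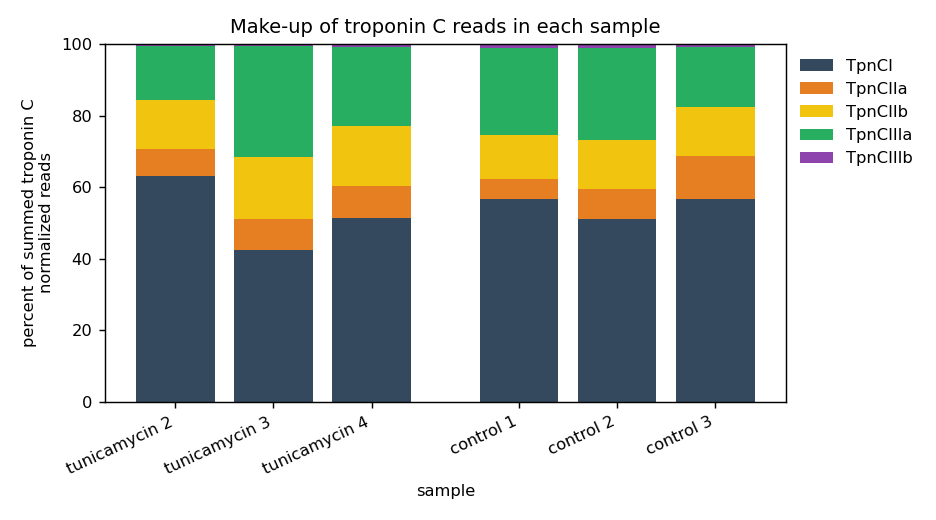
Percent of the summed normalized reads of the 5 troponin C genes (vertical axis) held by each gene in each sample, tunicamycin samples left and control samples right. TpnCI runs from 42.4% to 63.1% in tunicamycin samples and from 51.1% to 56.7% in controls, and TpnCIIIb is the thin band at the top.

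Other muscle genes could be looked up by symbol in few cases. Of 42 symbols sought for contractile and sarcomere proteins 0 matched. Most genes, 9710 of the 10013, are listed under LOC numbers, and genes listed under other names would also be missed. Of 32 symbols for calcium handling and energy supply, some differing in letter case only, 3 matched. Of these 3, 0 passed in limma and 0 had an unadjusted p under 0.05, against 1.13% and 15.5% of all genes. Argk, the arginine kinase that buffers ATP in insect muscle and other tissues, had 30699, 34026 and 28789 normalized reads in tunicamycin samples and 19916, 41348 and 35284 in controls. Like TpnI and TpnT it was lowest in control replicate 1 (log2 fold change 0.017, SE 0.28; limma adjusted p = 0.988). Within tunicamycin, however, Argk was lowest in replicate 4, and TpnI and TpnT in replicate 2. Its Pearson r over 6 samples was 0.82 with TpnI and 0.77 with TpnT, as a description, and fell to 0.31 and 0.30 without the samples farthest out.

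Camkii, the calcium and calmodulin dependent kinase, had 626, 426 and 589 normalized reads in tunicamycin samples and 379, 484 and 420 in controls (log2 0.34, SE 0.18; limma adjusted p = 0.415). It did not follow TpnI over samples (r = 0.14). Cac, the voltage-gated calcium channel subunit cacophony, was at 32.7, 21.1 and 18.9 in tunicamycin samples and 11.0, 10.2 and 22.3 in controls (log2 0.75, SE 0.43; limma adjusted p = 0.455), also without following TpnI (r = 0.010).

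Of 236 other genes with a symbol and a mean of at least 50 normalized reads, 5 were most like the mean of TpnI and TpnT on the log2 scale over the 6 samples. Their Pearson r, a description with the same 6 libraries behind every gene, was 0.99 for Ancr-1, 0.96 for ATP5G2, 0.93 for Pkc, 0.88 for Fabp and 0.86 for Su(var)3-9. Ancr-1 is a non-coding RNA of honey bees, ATP5G2 a subunit of ATP synthase, Pkc a protein kinase C, Fabp a fatty acid binding protein and Su(var)3-9 a histone methyltransferase. Ancr-1 had 23229, 33536 and 29574 normalized reads in tunicamycin samples and 17484, 29858 and 28608 in controls. It was lowest in control replicate 1 and, within tunicamycin, in replicate 2, as TpnI and TpnT were, which follows from its choice by r. Among all 8281 other genes with such a mean, 90 (1.09%) had r of at least 0.9. Of these, LOC552674 (r = 0.999) and LOC410999 (r = 0.991) stood above Ancr-1.

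The least alike of the 236 were Y-f, a gene of the yellow family (r = -0.97), Nrx-1, a neurexin (r = -0.89), and Tspan6, a tetraspanin (r = -0.88). Y-f had 336, 98.3 and 160 normalized reads in tunicamycin samples and 792, 180 and 140 in controls, highest in each group where TpnI was lowest. This opposite pattern follows from its choice by r. None of these 8 genes passed between tunicamycin and control in limma (adjusted p from 0.370 to 0.962), against 1.13% of all genes. They were chosen by r with TpnI and TpnT, which did not pass, so the choice largely fixed this outcome.

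**Figure D5:**
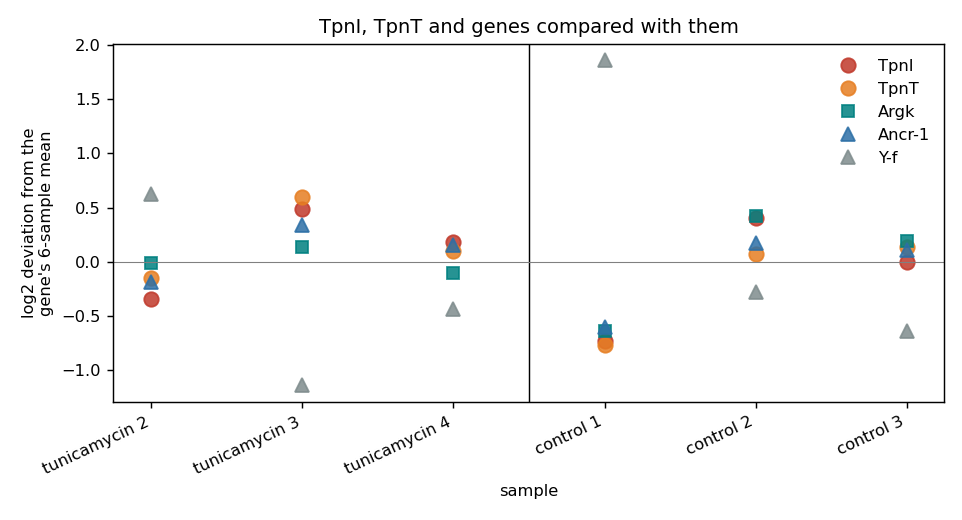
Log2 deviation from the gene's own 6-sample mean (vertical axis) for TpnI, TpnT, Argk, Ancr-1 and Y-f in each sample, tunicamycin left and control right. Ancr-1 and Y-f were chosen by r with TpnI and TpnT, as the most and least alike of 236 genes with a symbol. TpnI, TpnT, Argk and Ancr-1 are all lowest in control replicate 1, where Y-f is highest.

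Markers of other cell types were set beside the low troponin values of control replicate 1 and tunicamycin replicate 2. None of the 5 fat body genes passed in limma, against 1.13% of all genes. Their summed normalized reads were 448, 790 and 686 in tunicamycin replicates 2, 3 and 4 and 690, 918 and 764 in control replicates 1, 2 and 3. Their sum was lowest in each group in the same samples as TpnI and TpnT. Of the single genes, HEX70b and Hex110 did the same. Within tunicamycin Hex70c was instead highest in replicate 2, at 78.5 against 37.0 and 72.6 in replicates 3 and 4. Vg was at 14.2 there, against 69.8 and 9.43. Hex70a, a hexamerin storage protein gene of that list, was however highest among all samples in control replicate 1, at 297 against 194 and 184 in the other controls and 107, 147 and 126 in tunicamycin samples (log2 -0.80, SE 0.23; limma adjusted p = 0.176). HEX70b, another hexamerin, was at 144, 366 and 321 in tunicamycin samples and 249, 372 and 277 in controls (log2 -0.20, SE 0.36; limma adjusted p = 0.830). The 3 alpha-glucosidase genes of the digestive enzyme list were also lowest among controls in replicate 1. There Hbg2 had 513091 normalized reads against 608892 and 885501 in the other controls, and Hbg3 had 1168 against 1609 and 1736. Within tunicamycin all 3 were lowest in replicate 4 and not in replicate 2. The part of these genes in the troponin values was not tested.

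The other marker lists held no gene that passed in limma, against 1.13% of all genes. The hemocyte gene PPO ranged from 42.5 to 67.9 in tunicamycin samples and from 59.6 to 71.9 in controls (log2 -0.22, SE 0.25; limma adjusted p = 0.714). Of 4 enteroendocrine and neuronal genes, the vesicle fusion gene Syx1A differed most, at 11472, 7612 and 12264 in tunicamycin samples and 4776, 6092 and 5668 in controls (log2 0.90, SE 0.20; limma adjusted p = 0.105). The peptide gene Tk followed (log2 0.52, SE 0.21; limma adjusted p = 0.295). Of 3 alpha-glucosidases, Hbg3 differed most (log2 -0.84, SE 0.23; limma adjusted p = 0.163), then AGLU2 (log2 -0.46, SE 0.47; limma adjusted p = 0.673).

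Of 19 genes found by the symbol prefixes of neurotransmitter and peptide receptors, 0 passed in limma, against 1.13% of all genes. A limma unadjusted p under 0.05 was found for 3 of them, against 15.5% of all genes. The largest differences were those of Pban and Akhr. Pban, which is the gene of a peptide and not of a receptor, was at 988, 13.7 and 13.2 in tunicamycin samples and 599, 1029 and 16.5 in controls (log2 -1.90, SE 2.04; limma adjusted p = 0.690). Akhr, the receptor of adipokinetic hormone, was at 31.6, 31.7 and 9.43 in tunicamycin samples and 4.00, 12.1 and 6.80 in controls (log2 1.48, SE 0.62; limma adjusted p = 0.311).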

How the data were processed

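Poly(A) RNA of honey bee midgut was sequenced in 6 samples. Trimmomatic 0.36 is named in the submitters' processing notes beside STAR, Subread and DESeq2. The sources used here give no role for any of these tools, no build and no strand setting. The authors deposited 3 tables of 1 tunicamycin and 1 control sample each, holding a normalized signal: dividing a column by what a single read is worth gave whole numbers for 100% of values in all 6 columns (tolerance 0.001 reads). In control replicate 1 that worth is close to 1 and shows in the large values.

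All 10013 genes were fitted by limma 3.58.1 with a mean-variance trend, run in R 4.3.3 on log2-transformed values with a pseudocount of 1. Group was the sole term and p-values were adjusted by Benjamini-Hochberg. Fold changes are on that scale, which understates changes of low genes. Recovered reads were also tested with edgeR 4.0.16, DESeq2 1.42.0 and limma-voom. Shares, ratios and correlations had exact permutation tests (SciPy 1.17.1). Near-identical paralogs can share reads, and the sequences of the troponin C genes were not compared here. Of the identifiers, 9205 matched the RefSeq table by symbol. Named genes were all Tpn genes, Hsc70-3, the 5 most and 3 least alike named genes, the calcium list, and of the other lists those that passed or the 2 with the largest fold change; nearest or overlapping genes of the reference were added after their values were seen. The genes and lists were chosen with earlier results of these data known.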

Additional observations from a re-analysis of the deposited data

How the results depend on the processing

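Over 133 alternative fits of the 7 troponin genes by limma, edgeR and DESeq2, 0 gave a call (adjusted p from 0.170 to 0.999) and 7 turned the sign of a log2 fold change. These 133 are 19 settings for each gene, and not all could change a result. Fits without the filter equal the main fit, since the filter removed no gene. The block by deposited table leaves each log2 fold change as it was. With each sample left out in turn TpnT lay between 0.078 and 0.54, TpnCI between -0.29 and -0.037 and TpnCIIb between 0.020 and 0.39, the lowest TpnT and TpnCIIb without control replicate 1. These 3 and TpnCIIIb kept their sign in all alternatives. TpnI lay between -0.092 (without control replicate 1) and 0.48, TpnCIIa between -0.47 and 0.17, TpnCIIIa between -0.36 and 0.21, and TpnCIIIb between -1.03 and -0.62. Without the deposited table that holds tunicamycin replicate 2 and control replicate 1, an alternative added after seeing the data, TpnCIIIa was at 0.13. With the replicate block by shared number (4 samples) TpnI was at -0.13 and 4 genes of all were called; the replicate block by deposited table called 44, against 113 in the fit reported. Same-numbered samples deviated with correlations of -0.12 and -0.10 and samples of 1 table with 0.05, 0.15 and 0.05. The sample descriptions name the same pairs as the deposited tables, without saying what the samples of a pair shared. Correlations over 3 samples a group cannot exclude a pairing. The fit reported assumed none, and no block changed a troponin call. DESeq2 called 516 genes; the cause was not tested. Leaving out 1 sample gave 20 to 202 genes: 57 and 32 without tunicamycin replicates 2 and 4, and 202, 23 and 20 without control replicates 1, 2 and 3. The group difference in the share of troponin C reads lay between -7.86 and 2.50 percentage points for TpnCI, -1.88 and 1.15 for TpnCIIa and -3.63 and 4.28 for TpnCIIIa. By Spearman rank, 3 of the 5 most alike genes were among the top 5. Shares per transcript length were not run, for want of lengths. Depth limits TpnCIIIb, at 17 to 52 reads a sample.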
